A study of Mus musculus with 12 samples.

Results

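Insulin-like growth factor (IGF) signalling was represented by 10 genes of the table: the ligands Igf1 and Igf2, the receptors Igf1r and Igf2r, and the binding proteins Igfbp2, Igfbp3, Igfbp4, Igfbp5, Igfbp6 and Igfbp7. They were chosen by gene symbol, and each had 1 row among the 25899 genes measured. Total RNA was sequenced from the apical portion of the mandibular first molar germ in C57BL/6 mice at postnatal day 4, when the root is starting to form. There were 6 libraries of Nfic-/- mice, which lack the transcription factor nuclear factor I/C, and 6 libraries of littermate Nfic+/- controls, which keep 1 functional copy. The labels name no tissue-specific driver for the loss. Both genotypes carry at least 1 mutant allele, so a wild-type level is not part of the comparison. The labels do not say how many germs a library holds.

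IGF1 and IGF2 are secreted peptides that drive growth and survival through the receptor tyrosine kinase encoded by Igf1r. The product of Igf2r carries no kinase and takes IGF2 into the cell for degradation, and in mice Igf2 is expressed mainly from the paternal and Igf2r mainly from the maternal copy. The binding proteins hold the ligands in the extracellular space, which can limit or prolong their action, and most of them bind IGFs with high affinity. IGFs are known to act on dental mesenchyme and on the cells that form dentin, cementum and periodontal ligament.

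The table held RPKM, a read count scaled to gene length and library depth, on a log2 scale. Because of this scaling, levels can be set side by side between genes, within the limits of gene models that were not stated. Library depth, read from the size of single-read steps, was 70.2 to 96.4 M reads. Reads of Amelx, the amelogenin gene of enamel, made up 3.40% to 13.5% of each library's gene reads. Nfic itself averaged 11.4 ± 3.02 RPKM in Nfic-/- and 16.8 ± 4.42 RPKM in Nfic+/- libraries (SD, n = 6 each), lower in 6 of 6 same-numbered pairs and not absent (exact 2-sided permutation p = 0.0303). That p was 0.0541 without Nfic-/- library 5 or without Nfic-/- library 6, 0.0519 without Nfic+/- library 6 and 0.0628 without Nfic+/- library 10. Nfic-/- library 6 stood apart with the lowest level of 12 libraries for 27.1% of the tested genes. Libraries 8 and 9 of both genotypes contained intestinal transcripts, up to 297.5 RPKM in Nfic-/- and 327.6 RPKM in Nfic+/- summed over 10 intestinal markers. The headers repeat some sample-sheet numbers, so libraries 5 to 7 and 8 to 10 were read as separate sheets, each holding both genotypes.

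The binding proteins Igfbp5, Igfbp3, Igfbp4 and Igfbp7 had the highest mean levels of the 10 members, and Igfbp6 had the lowest. Igfbp5 came first with a mean of 169.5 RPKM over the 12 libraries, then Igfbp3 with 83.8, Igfbp4 with 63.3, Igfbp7 with 45.3 and Igfbp2 with 40.1 RPKM. The ligand Igf2 averaged 37.4 RPKM. Igf1r had 10.2, Igf1 had 8.34, Igf2r had 5.44 and Igfbp6 had 0.511 RPKM. Igfbp5 exceeded Igfbp3 in 12 of 12 libraries, Igfbp4 exceeded Igfbp7 in 12 of 12, and Igf2 exceeded Igf1r in 12 of 12. Igfbp3 exceeded Igfbp4 in 11 of 12, Igf1r exceeded Igf1 in 10 of 12 and Igf1 exceeded Igf2r in 11 of 12. The order was least steady for Igfbp7 and Igfbp2, with Igfbp7 higher in 8 of 12 libraries, and for Igfbp2 and Igf2, with Igf2 higher in 8 of 12. The mean of Igfbp2 lay above that of Igf2 through Nfic-/- library 7, and without that library the means were 31.9 RPKM for Igfbp2 and 37.9 RPKM for Igf2. Igfbp1, a binding protein known mainly from liver, had 0 reads in 8 libraries and 1 read in 4, and 0 reads allows up to 0.028 RPKM in these libraries.

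**Figure D1:**
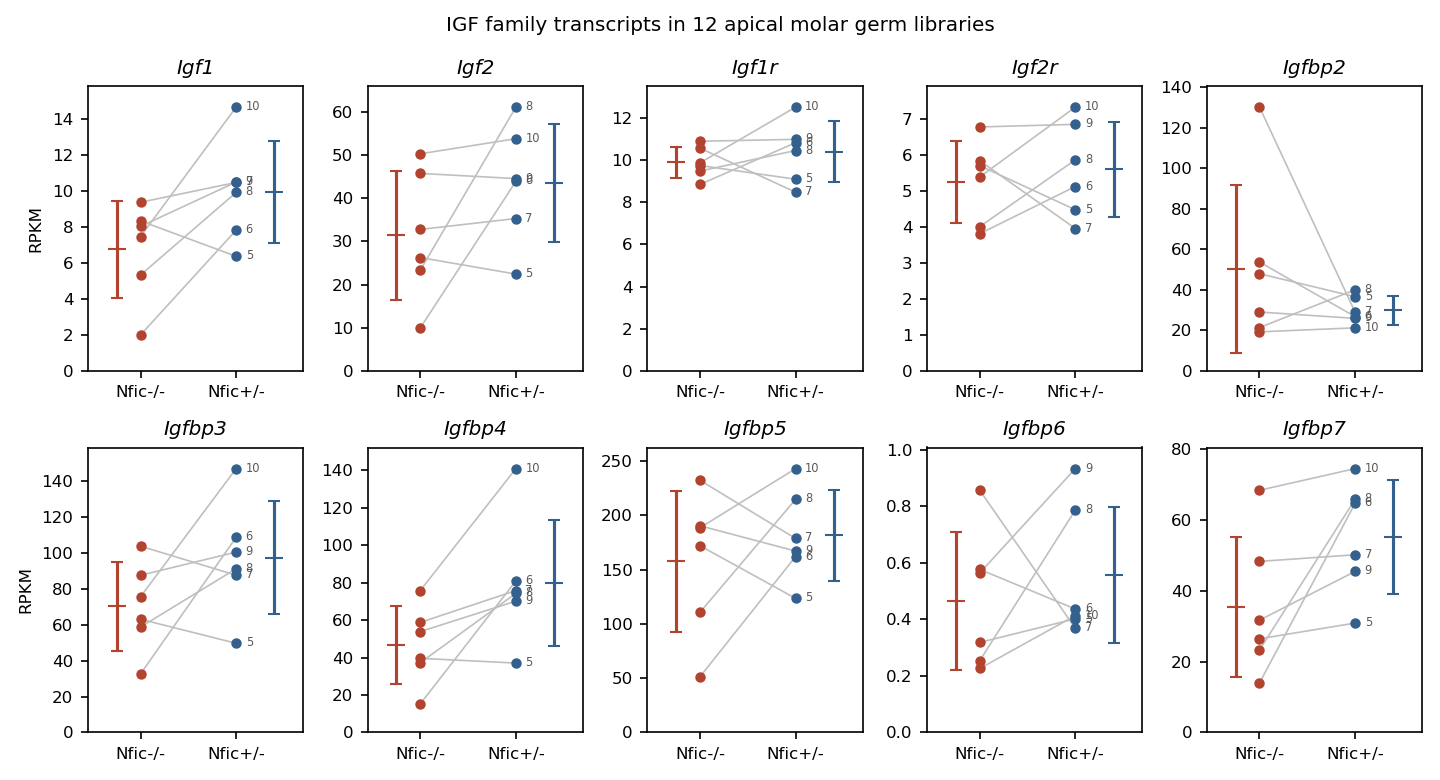
Level in RPKM (y axis, from 0 and scaled per panel) of each of the 10 IGF family genes, 1 point per library, with Nfic-/- left of Nfic+/-, grey lines joining same-numbered libraries and outer bars giving mean ± SD (n = 6 each). The points of the genotypes overlap in each gene, and only Igfbp7 is lower in Nfic-/- in 6 of 6 pairs.

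Genotype differences were mostly negative, and none passed the threshold over all genes. Of the 10 members, 9 reached a mean of 1 RPKM and were tested among 12094 genes. On log2(RPKM + 1), 8 of 9 stood lower in Nfic-/- libraries, against 51.1% of all tested genes, and Igfbp2 stood higher. By limma with Benjamini-Hochberg adjustment 0 of 9 had an adjusted p under 0.05, where the background over all genes was 0%. At an unadjusted p under 0.05, 2 of 9 were lower (Igfbp4 and Igfbp7), against 2.72% of all tested genes, and 0 were higher, against 2.62%. The exact permutation test gave an unadjusted p under 0.05 for 0 of 9, and the share of all tested genes was not counted. After adjustment it gave 0 of 9 and 0 of all tested genes. The median difference of the 9 genes was -0.48, and that of all tested genes was -0.003. The values of the genotypes separated fully in 0 of 9, against 0.0331% of all tested genes with every Nfic-/- library below and 0.124% with every one above. Of the 9, 3 were lower in 5 or 6 of 6 pairs, against 8.32% of all tested genes, and 0 were higher in 5 or 6, against 13.3%. In 6 of 6 pairs 1 was lower, against 2.68%, and 0 were higher, against 2.69%. Differences of -0.5 or lower were found for 4 of 9 (Igf1, Igf2, Igfbp4 and Igfbp7), against 2.16% of all tested genes.

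These counts depend on single libraries. Without Nfic-/- library 6 the median of the 9 genes was -0.28 and that of all tested genes 0.029, 2 of 9 had a difference of -0.5 or lower, against 0.901% of all tested genes, and 0 of 9 had an unadjusted p under 0.05 in the lower direction, against 1.03%. That last count was also 0 without any single one of Nfic-/- library 8 and Nfic+/- libraries 6, 8 and 10. The shares of all tested genes were 1.75%, 1.74%, 2.14% and 1.01% in that order. Without Nfic+/- library 5 the count was 5, against 6.56% of all tested genes. Without Nfic+/- library 10 the median was -0.35 and that of all tested genes 0.027. There 2 of 9 had a difference of -0.5 or lower, against 1.21% of all tested genes. With 1 library left out, 8 of 9 stood lower in each case, against 37.0% to 65.7% of all tested genes. Under 2 other fits some genes elsewhere passed, 0.141% of those tested with library weights and 0.091% with the pair as a block and pair 6 left out, and 0 of 9 members passed in either.

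**Figure D2:**
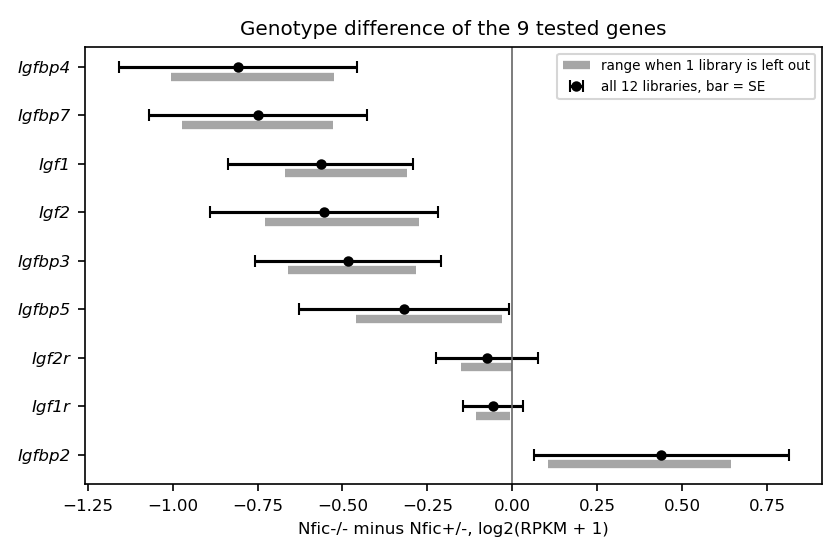
Nfic-/- minus Nfic+/- difference in log2(RPKM + 1) of the 9 tested genes, with points and bars for the estimate and its SE over 12 libraries and grey bars for the range when 1 library is left out. Igfbp4 and Igfbp7 lie lowest at -0.81 and -0.75, Igfbp2 is the only gene above 0, and no grey bar crosses 0.

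Among the ligands, Igf1 (chromosome 10, 87858265 to 87937042, plus strand, GRCm38) had 8.32, 1.998, 8.02, 5.32, 9.36 and 7.45 RPKM in Nfic-/- libraries 5 to 10, against 6.36, 7.81, 10.5, 9.91, 10.5 and 14.6 RPKM in Nfic+/- libraries 5 to 10. The low value is Nfic-/- library 6, and the genotypes overlap. The means were 6.75 ± 2.68 RPKM in Nfic-/- and 9.94 ± 2.83 RPKM in Nfic+/- (SD, n = 6 each). The difference was -0.56 (SE 0.27, adjusted p by limma 0.941), lower in 5 of 6 pairs. It was -0.52 within libraries 5 to 7, -0.61 within libraries 8 to 10 and -0.31 without Nfic-/- library 6.

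Igf2 (chromosome 7, 142650766 to 142666816, minus strand) had 26.3, 9.96, 32.8, 23.3, 45.7 and 50.3 RPKM in Nfic-/- libraries 5 to 10, against 22.4, 43.9, 35.3, 61.1, 44.5 and 53.8 RPKM in Nfic+/- libraries 5 to 10. The lowest was again Nfic-/- library 6, and the remaining values of the genotypes intermingle. The difference was -0.56 (SE 0.34, adjusted p by limma 0.98), lower in 4 of 6 pairs. Without Nfic-/- library 6 it was -0.28, and it was -0.64 within libraries 5 to 7 and -0.47 within libraries 8 to 10. Igf2 exceeded Igf1 by 3.15 to 6.75 times in Nfic-/- and by 3.37 to 6.17 times in Nfic+/- libraries. H19, the maternally expressed noncoding RNA that shares enhancers with Igf2, averaged 90.5 ± 37.7 RPKM in Nfic-/- and 109 ± 29.2 RPKM in Nfic+/- (SD, n = 6 each). Over the 12 libraries Igf2 and H19 correlated at r = 0.941 and rho = 0.902 (permutation p = 1e-05, the smallest possible with 100000 resamples, and 0.00019). The r was 0.935 without the 2 libraries farthest from the median of Igf2, 0.913 within libraries 5 to 7 and 0.953 within libraries 8 to 10. Such an r was not particular to H19. Over the same 12 libraries Igf2 had r = 0.975 with Olfml2b and r = 0.957 with a list of pericyte and smooth muscle markers. Shared control of Igf2 and H19 was not tested. An antisense gene, listed at 0.395 RPKM on average, shares 98 of the 5723 exon bases of Igf2. Reads within these shared bases cannot be told apart without strand information. A further annotated gene on the same strand shares 3596 exon bases with Igf2 and is not among the 25899 genes measured. How reads in those bases were assigned is not known.

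The receptors varied least. Igf1r (chromosome 7, 67952827 to 68233668, plus strand) had 9.75, 8.85, 10.6, 9.49, 10.9 and 9.88 RPKM in Nfic-/- libraries 5 to 10, against 9.10, 10.8, 8.48, 10.5, 10.99 and 12.5 RPKM in Nfic+/- libraries 5 to 10. Its highest library was 1.48 times its lowest, the smallest such range among the 10 members. The difference was -0.06 (SE 0.09, adjusted p by limma 1), and it was 0.04 within libraries 5 to 7 and -0.15 within libraries 8 to 10. Igf2r (chromosome 17, 12682406 to 12769664, minus strand) had 5.71, 3.82, 5.85, 4.02, 6.79 and 5.40 RPKM in Nfic-/- libraries 5 to 10, against 4.49, 5.13, 3.96, 5.88, 6.86 and 7.34 RPKM in Nfic+/- libraries 5 to 10. The genotypes overlap across nearly their whole ranges. It averaged 5.26 ± 1.14 RPKM in Nfic-/- and 5.61 ± 1.33 RPKM in Nfic+/- (SD, n = 6 each). Its difference of -0.07 (SE 0.15, adjusted p by limma 1) was 0.14 within libraries 5 to 7, -0.28 within libraries 8 to 10 and 0.01 without libraries 8 and 9. The sign of either receptor therefore depends on which libraries are used.

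Promoters of 3 binding proteins are printed below from RefSeq (GRCm38.p6), 250 bases before to 50 after the annotated start. Capitals mark TTGGC, the half-site of the nuclear factor I family, and TATAAA, the core promoter box, each searched on both strands. Igfbp4 and Igfbp7 are shown because they had the lowest differences, and Igfbp5 because it had the highest level.
Igfbp4, chr11:99040994-99041293, plus strand: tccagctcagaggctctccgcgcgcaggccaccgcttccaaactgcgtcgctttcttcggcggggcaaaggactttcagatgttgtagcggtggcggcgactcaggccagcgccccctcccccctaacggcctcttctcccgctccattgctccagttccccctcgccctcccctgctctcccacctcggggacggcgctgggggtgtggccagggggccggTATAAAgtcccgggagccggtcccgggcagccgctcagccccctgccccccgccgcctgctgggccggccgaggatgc
Igfbp7, chr5:77407996-77408295, minus strand: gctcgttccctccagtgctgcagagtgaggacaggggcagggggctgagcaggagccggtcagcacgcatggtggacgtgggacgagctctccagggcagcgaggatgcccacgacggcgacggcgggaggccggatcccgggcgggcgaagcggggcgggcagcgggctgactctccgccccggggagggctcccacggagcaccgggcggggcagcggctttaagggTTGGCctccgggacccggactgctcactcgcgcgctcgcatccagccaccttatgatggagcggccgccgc
Igfbp5, chr1:72874816-72875115, minus strand: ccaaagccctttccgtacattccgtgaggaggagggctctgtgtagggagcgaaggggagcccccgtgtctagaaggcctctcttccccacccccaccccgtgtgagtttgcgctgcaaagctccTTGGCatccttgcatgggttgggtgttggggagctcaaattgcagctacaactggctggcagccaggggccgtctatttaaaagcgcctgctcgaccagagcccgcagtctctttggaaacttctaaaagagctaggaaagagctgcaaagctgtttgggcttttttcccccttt
TTGGC occurred in 2 of the 14 promoters listed for the 10 genes, 21 bases before the start in Igfbp7 and 125 bases before it in Igfbp5, against 46.7% of 32851 promoters of the same length. The full palindrome of the family, the half-site followed after 5 bases of any kind by its reverse complement, contains the half-site and occurred in 0 of 14, against 0.0365%. TATAAA occurred in 2 of 14, 28 bases before the start in Igfbp4 and 148 before it in Igfbp6, against 13.6%. GGGCGG, the core of the Sp1 motif, occurred in 6 of 14, against 35.7%.

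Igfbp4, whose protein mostly restrains IGF action until it is cleaved, had the lowest difference of the 9 genes. Igfbp4 (chromosome 11, 99041244 to 99054392, plus strand) had 39.6, 15.3, 58.8, 37.3, 53.9 and 75.8 RPKM in Nfic-/- libraries 5 to 10, against 37.1, 81.0, 75.8, 74.3, 70.2 and 141 RPKM in Nfic+/- libraries 5 to 10. Nfic-/- library 6 was the lowest and Nfic+/- library 10 the highest, and the genotypes overlap. The means were 46.8 ± 20.9 RPKM in Nfic-/- and 79.9 ± 33.8 RPKM in Nfic+/- (SD, n = 6 each). The difference was -0.81 (SE 0.35), which is 57.2% of the Nfic+/- level of RPKM + 1, with an unadjusted p of 0.038 and an adjusted p of 0.934 by limma. It was lower in 5 of 6 pairs, with the exact permutation p at 0.0714. The difference was -0.87 within libraries 5 to 7, -0.75 within libraries 8 to 10 and -0.53 without Nfic-/- library 6.

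Igfbp7, whose protein binds IGFs weakly and is known from vessel walls, was the only member lower in 6 of 6 pairs. Igfbp7 (chromosome 5, 77349240 to 77408041, minus strand) had 26.4, 13.95, 48.3, 23.3, 31.7 and 68.4 RPKM in Nfic-/- libraries 5 to 10, against 30.9, 64.7, 50.2, 65.8, 45.5 and 74.5 RPKM in Nfic+/- libraries 5 to 10. The pair differences ran between -2.13 at number 6 and -0.05 at number 7, and the genotypes overlap. The difference was -0.75 (SE 0.32), which is 59.5% of the Nfic+/- level of RPKM + 1, with an unadjusted p of 0.0359 and an adjusted p of 0.934 by limma. The exact permutation p was 0.0758. It was -0.80 within libraries 5 to 7, -0.70 within libraries 8 to 10 and -0.53 without Nfic-/- library 6. Polr2b, an RNA polymerase II subunit gene on the opposite strand, shares 85 exon bases with Igfbp7.

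Igfbp3 encodes the main IGF carrier of the blood. It (chromosome 11, 7206086 to 7213923, minus strand) had 63.1, 32.6, 103.8, 58.7, 87.5 and 75.6 RPKM in Nfic-/- libraries 5 to 10, against 49.7, 108.7, 87.6, 91.2, 100.5 and 147 RPKM in Nfic+/- libraries 5 to 10. The genotypes overlap, with the lowest value in Nfic-/- library 6 and the highest in Nfic+/- library 10. The difference was -0.48 (SE 0.27, adjusted p by limma 0.974), lower in 4 of 6 pairs, and -0.28 without Nfic-/- library 6. It was -0.38 within libraries 5 to 7 and -0.59 within libraries 8 to 10. Igfbp5, which binds to bone and extracellular matrix, lies beside Igfbp2 on chromosome 1 (72857932 to 72874884, minus strand). It had 172, 51.3, 232.3, 110.7, 190.4 and 188.6 RPKM in Nfic-/- libraries 5 to 10, against 123.5, 162.1, 178.7, 214.8, 167.1 and 243.1 RPKM in Nfic+/- libraries 5 to 10. The lowest by far was Nfic-/- library 6, and the genotypes overlap. Igfbp5 averaged 157.6 ± 65.3 RPKM in Nfic-/- and 181.5 ± 42.1 RPKM in Nfic+/- (SD, n = 6 each), lower in 3 of 6 pairs. Its difference of -0.32 (SE 0.31, adjusted p by limma 1) was -0.26 within libraries 5 to 7, -0.38 within libraries 8 to 10 and -0.03 without Nfic-/- library 6.

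Igfbp2 was the only tested member that stood higher in Nfic-/- libraries, and 1 library carried much of this. Igfbp2 (chromosome 1, 72824503 to 72852474, plus strand) had 48.0, 53.8, 130.3, 21.4, 29.1 and 19.3 RPKM in Nfic-/- libraries 5 to 10, against 36.7, 26.8, 29.1, 40.1, 25.95 and 21.3 RPKM in Nfic+/- libraries 5 to 10. Nfic-/- library 7 is the high value, and the genotypes overlap. The difference was 0.44 (SE 0.37, adjusted p by limma 1), and it was 0.10 without Nfic-/- library 7. Within libraries 5 to 7 it was 1.16, and within libraries 8 to 10 it was -0.28, so its direction differed between the sheets. Without libraries 8 and 9 of both genotypes it was 0.84. Igfbp6, which prefers IGF2 (chromosome 15, 102144362 to 102149511, plus strand), was not tested because its mean was under 1 RPKM. It ran between 0.226 and 0.857 RPKM in Nfic-/- libraries and between 0.368 and 0.933 RPKM in Nfic+/- libraries.

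The makeup of the binding protein pool was compared as shares of the summed RPKM of Igfbp2 to Igfbp7. The sum had a lowest, median and highest value of 167.5, 371.3 and 574.4 RPKM in Nfic-/- and 278.2, 432.7 and 627.3 RPKM in Nfic+/- libraries. Igfbp5 made up 30.6%, 44.0% and 49.2% of it in Nfic-/- and 36.5%, 41.6% and 44.4% in Nfic+/- libraries. Igfbp4 made up 9.11%, 12.5% and 17.7% in Nfic-/- and 13.3%, 17.5% and 22.5% in Nfic+/- libraries. For Igfbp2 these shares were 4.51%, 11.1% and 32.1% in Nfic-/- and 3.39%, 6.61% and 13.2% in Nfic+/- libraries. The ranges of the genotypes overlap for each share, and the shares were not tested.

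Variation between libraries was shared by most members. Nfic-/- library 6 was the lowest of 12 in 7 of 10 members, against 27.1% of all tested genes. Nfic+/- library 10 was the highest in 7 of 10, and that share over all tested genes was not counted. Of 45 pairs of members, 24 correlated over the 12 libraries at an adjusted permutation p under 0.05, each positively. How many pairs of other genes correlate in this way was not counted, so the 24 cannot be set apart from variation of the whole table. Igfbp4 and Igfbp7 correlated at r = 0.943 and rho = 0.916, with r = 0.927 without the 2 libraries farthest from the median, 0.981 within libraries 5 to 7 and 0.884 within libraries 8 to 10 (adjusted permutation p = 0.00045). The receptors Igf1r and Igf2r correlated at r = 0.894 and rho = 0.902, with r = 0.855 without the 2 farthest libraries (adjusted permutation p = 0.0009). Igfbp2 and Igfbp6 were in none of the 24 pairs.

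**Figure D3:**
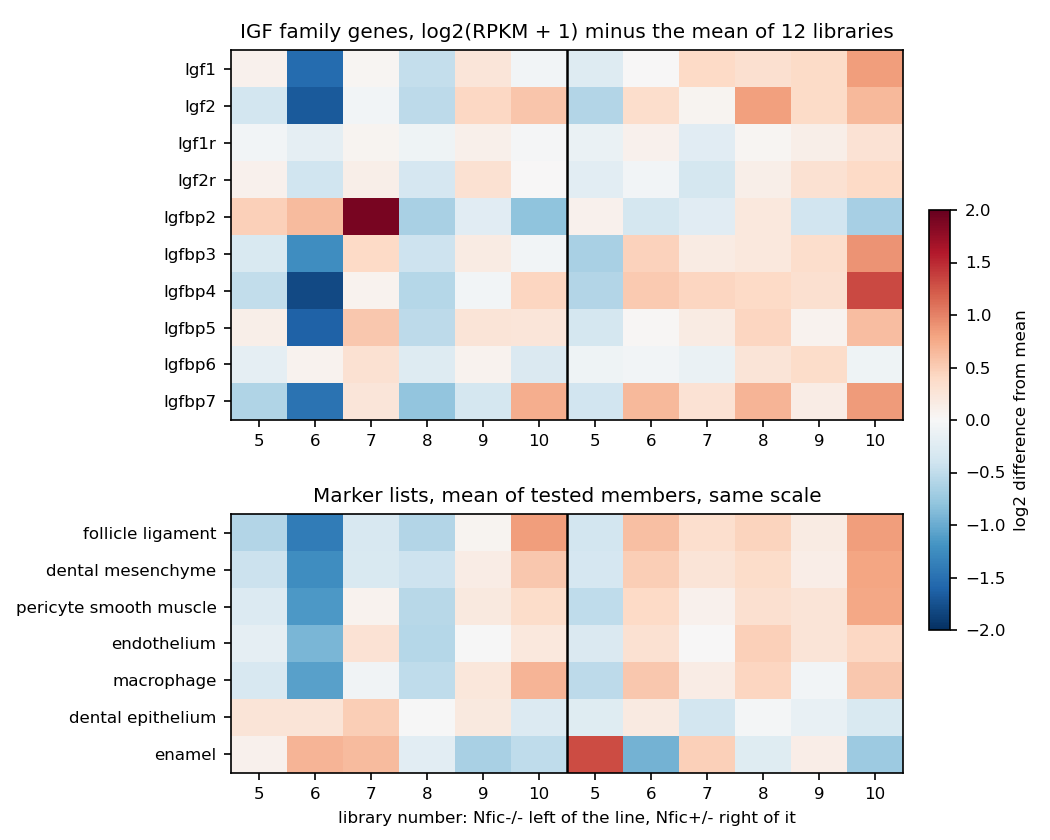
Difference from the 12-library mean in log2(RPKM + 1) for the 10 IGF family genes (upper panel) and the mean of 7 marker lists (lower panel), Nfic-/- libraries 5 to 10 left of the line and Nfic+/- libraries 5 to 10 right of it. Nfic-/- library 6 is low in most IGF genes and in the mesenchymal, vascular and macrophage lists, and Igfbp2 is highest in Nfic-/- library 7.

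Markers of cell types in the germ were compared between the genotypes in the same fit, and none of them passed the threshold by limma (smallest adjusted p 0.934). All 8 tested dental mesenchyme markers stood lower in Nfic-/- libraries, with a summed level of 145.8 to 514.7 RPKM in Nfic-/- and 272.3 to 577 RPKM in Nfic+/-. The same held for 10 of 10 follicle and ligament markers (256.7 to 1036 RPKM in Nfic-/-, 518.3 to 1098 RPKM in Nfic+/-) and 9 of 9 endothelial markers (17.5 to 56.0 RPKM in Nfic-/-, 34.1 to 67.1 RPKM in Nfic+/-). Macrophage markers stood lower in 10 of 10, with 38 to 139.8 RPKM in Nfic-/- and 56.5 to 154.8 RPKM in Nfic+/-. Odontoblast markers stood lower in 10 of 11, with 2666 to 5215 RPKM in Nfic-/- and 4096 to 6257 RPKM in Nfic+/-. Of the pericyte and smooth muscle markers 6 of 8 stood lower, with 26.5 to 90.3 RPKM in Nfic-/- and 47.3 to 123.2 RPKM in Nfic+/-. Epithelial markers stood higher in 13 of 13, with 1989 to 2906 RPKM in Nfic-/- and 1657 to 2417 RPKM in Nfic+/-. At an unadjusted limma p under 0.05, 5 of 8 dental mesenchyme and 6 of 10 follicle and ligament markers were lower. For endothelial, macrophage, odontoblast and pericyte markers this was 2 of 9, 0 of 10, 6 of 11 and 3 of 8. Without Nfic-/- library 6 these counts were 0, 2, 0, 0, 2 and 1 in the order given. The share of all tested genes was 2.72%, or 1.03% without that library. Of the epithelial markers 5 of 13 were higher, against 2.62%.

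The median differences were -0.52 for dental mesenchyme, -0.66 for follicle and ligament, -0.37 for endothelium, -0.38 for macrophages, -0.49 for odontoblasts, -0.56 for pericytes and 0.30 for epithelium. Without Nfic-/- library 6 these were -0.35, -0.48, -0.23, -0.21, -0.36, -0.40 and 0.30 in the same order. The median of all tested genes was -0.003, or 0.029 without that library. Over all 12 libraries other lists had medians nearer to 0. These were 0.01 for 5 erythroid, -0.02 for 5 cartilage, -0.05 for 3 Schwann cell, 0.04 for 7 intestinal and 0.18 for 7 enamel genes. Without Nfic-/- library 6 they were 0.17, 0.124, 0.024, 0.245 and 0.035 in the same order. The intestinal median then lay farther from 0 than those of endothelium and macrophages. The 3 osteoclast genes had -0.42, or -0.07 without Nfic-/- library 6. The skeletal muscle list had 1 tested gene and was not used further. None of the markers in the 7 lists first named was under 0.05 RPKM in every library. In bulk RNA, fewer cells of a type and less RNA per cell cannot be told apart, and the part these markers have in the IGF differences was not tested.

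Of 130 relations between a member and a marker list, 48 had an adjusted permutation p under 0.05, each positive. By Spearman's rho 22 passed. How many genes outside the family follow these lists was not counted. Igfbp4 followed the pericyte list at r = 0.972 and rho = 0.909 (r = 0.937 without the 2 farthest libraries) and the dental mesenchyme list at r = 0.960 and rho = 0.916 (r = 0.901), each with an adjusted permutation p of 0.000433. Within libraries 5 to 7 the mesenchyme r was 0.962, and within libraries 8 to 10 it was 0.941. Igfbp7 followed the follicle and ligament list at r = 0.947 and rho = 0.972 (r = 0.886 without the 2 farthest libraries) and the endothelial list at r = 0.941 and rho = 0.874. Such relations were not limited to these lists. By r the cartilage list passed with 7 members, against 6 for dental mesenchyme and 8 for pericytes. Its 5 tested genes had genotype differences between -1.511 and 0.544. The median of -0.02 therefore does not describe the list mean used for r, whose own difference was not tested. Its r was 0.932 for Igf2 (rho = 0.902) and 0.924 for Igfbp4 (rho = 0.86). For Igfbp4 and Igfbp7, 6 of 6 relations that passed by r passed by rho too. For Igf2 this was 6 of 8, for Igfbp3 3 of 6 and for Igfbp5 1 of 7, and for Igf1 it was 0 of 8 (smallest adjusted permutation p by rho 0.101). The 8 relations of Igf1 had r between 0.689 and 0.887, and between 0.302 and 0.673 without the 2 farthest libraries, Nfic-/- library 6 and Nfic+/- library 10. Its r with dental mesenchyme was 0.842 and fell to 0.492 without them, and for Igfbp5 that r was 0.80 and fell to 0.42 without its 2 farthest libraries. Igf1r and Igf2r passed with 3 lists each by r and with 0 by rho. Igfbp2 passed with 1 list, the epithelial one, at r = 0.733 (adjusted permutation p = 0.0122) and rho = 0.706, but r = 0.44 without the 2 farthest libraries, so that relation rests on them, as do those of Igf1 and Igfbp5 with dental mesenchyme. Igfbp6 followed none of the 13 lists.

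**Figure D4:**
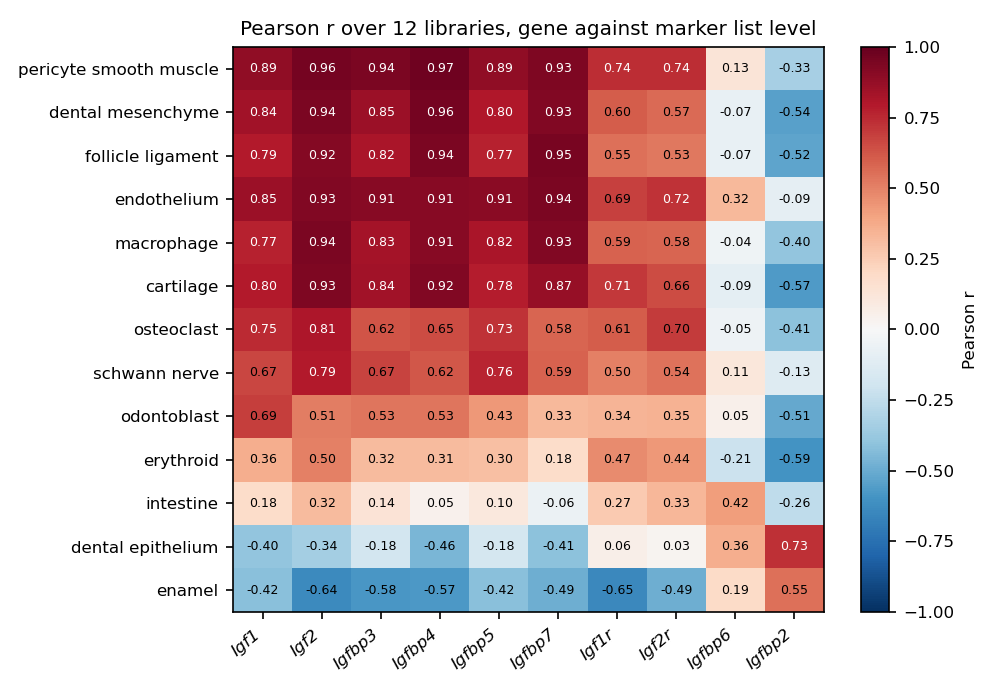
Pearson r over 12 libraries between the mean of each of 13 marker lists (rows) and each IGF family gene (columns), red for positive and blue for negative. Igf1, Igf2, Igfbp3, Igfbp4, Igfbp5 and Igfbp7 have r above 0.75 with the mesenchymal, vascular, macrophage and cartilage lists over all 12 libraries. By rho none of these relations passes for Igf1, and only the endothelial one passes for Igfbp5. For Igfbp3 those with dental mesenchyme, macrophages and cartilage do not pass by rho. The only relation of Igfbp2 past the threshold, with the epithelial list, falls to r = 0.44 without 2 libraries.

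**Figure D5:**
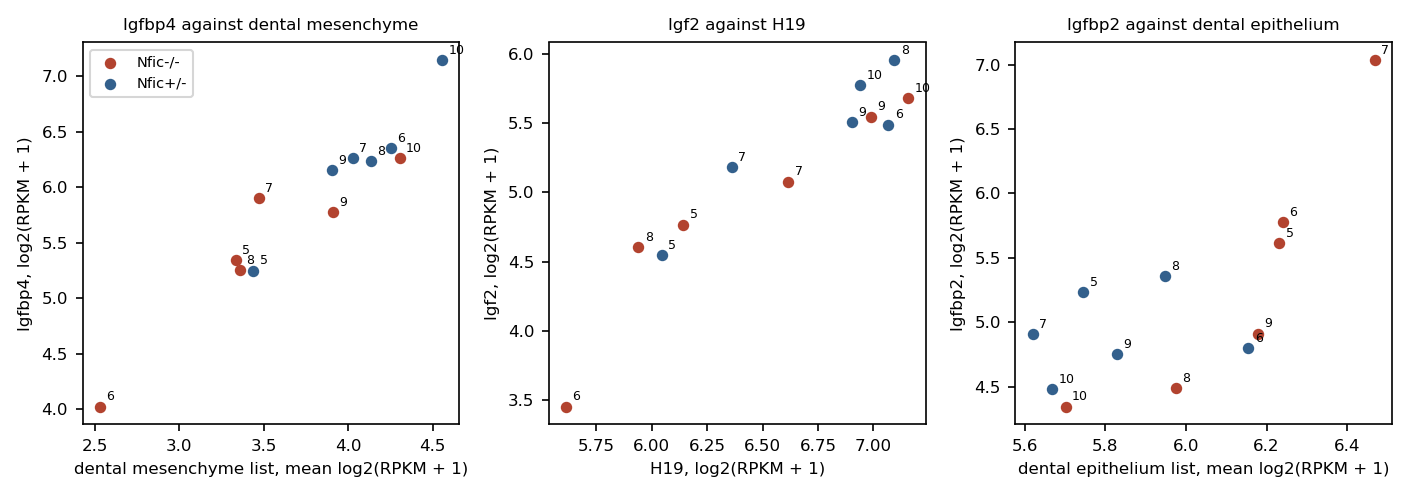
Igfbp4 against the mean of the dental mesenchyme list, Igf2 against H19 and Igfbp2 against the mean of the dental epithelium list, all in log2(RPKM + 1), 1 numbered point per library, red for Nfic-/- and blue for Nfic+/-. Nfic-/- library 6 lies at the low end of the first and second panels (r = 0.960 and 0.941), and Nfic-/- library 7 at the high end of the third.

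Other genes of the pathway were counted from lists, leaving out the 10 members, and none of them passed the threshold by limma. Of 16 further family genes such as the IGF mRNA-binding proteins, 7 were tested and 5 stood higher, with a median difference of 0.09. Igf2bp3, which binds Igf2 mRNA, differed by 0.15 and was higher in 6 of 6 pairs, while Igf2bp2 differed by -0.21 and Stc2, a stanniocalcin that inhibits cleavage of Igfbp4 protein, by -0.53. Of 35 signal transduction genes, 32 were tested and 23 stood lower, with a median of -0.06, or 18 with a median of -0.02 without Nfic-/- library 6. They include Grb14, an adaptor that inhibits receptor signalling, at -0.26 (unadjusted p 0.0445), and the imprinted inhibitor Grb10 at -0.60. Ghr, the growth hormone receptor gene, differed by -0.42. Of 15 Foxo factors and targets, 12 were tested and 9 stood lower, with a median of -0.05 (7 and -0.02 without Nfic-/- library 6) and with Pck2, a mitochondrial enzyme of gluconeogenesis, at -0.46 (unadjusted p 0.027). The transcription factor gene Foxo3 differed by -0.25 and Txnip, a thioredoxin inhibitor gene, by -0.34. Around Igf2 in its imprinted region, 4 of 5 other tested genes stood lower, with a median of -0.33 (3 of 5 and -0.17 without Nfic-/- library 6) and with the cell cycle inhibitor Cdkn1c at -0.66, lower in 6 of 6 pairs. Lsp1, a leukocyte actin-binding protein gene, differed by -0.47. Of 13 tested genes of the imprinted growth network, which holds some of the same genes, 12 stood lower, with a median of -0.45 (12 and -0.31 without Nfic-/- library 6), among them the matrix proteoglycan gene Dcn at -0.45 and the paternally expressed Mest at -0.77. Of the 4 listed neighbours of Igf2r, 0 reached the level for testing. Over all tested genes 51.1% stood lower, with a median of -0.003. Without Nfic-/- library 6 that share was 37.0% and that median 0.029. The smallest adjusted p by limma in these lists was 0.934.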

How the data were processed

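RNA of molar germs was sequenced in 6 Nfic-/- and 6 Nfic+/- libraries. TopHat2 and mm10 are named, per the submitters' processing notes. How reads were counted, and on which gene models, is not given in the sources used here. One deposited table holds log2 RPKM, as the authors made it, for 25899 genes. Linear RPKM had been assumed, so values deposited by the authors were turned back from base 2, which was settled from their sum over gene length. Genes with no reads carry 0.9 reads. Coordinates are from GENCODE M21.

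Genes averaging at least 1 RPKM were tested on log2(RPKM + 1), from the deposited values, with limma 3.58.1 in R 4.3.3, using an intensity trend, genotype as the only term and Benjamini-Hochberg adjustment at 0.05. Nfic was tested by exact permutation of 924 assignments, and correlations with 100000 resamples in numpy 2.4.6, with ranks from scipy 1.17.1. The fit was checked on simulated data with independent noise for each gene, where 54.7% of differences of 0.5 passed. Genes of the real libraries vary together, so this check cannot give the rate for these data. The members and lists were chosen with earlier results of these data known. Named genes were the 10 members, Nfic, and for each pathway list the 3 genes with the smallest unadjusted p. Fold differences understate low genes because of the pseudocount of 1. P-values measure the spread between these libraries.

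The series text speaks of 6 pairs and numbers 5 to 10 occur once per genotype, which was taken as the pairing, although the labels do not spell it out. Same-numbered deviations correlated at r = 0.492, 0.00502, 0.31, 0.667, 0.688 and 0.802. Alternatives changed the pseudocount, filter, scaling, variance model, library weights, block and libraries used.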

Additional observations from a re-analysis of the deposited data

How the results depend on the processing

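None of the alternatives gave an IGF family member an adjusted p under 0.05, and the smallest were 0.0794 for Igfbp4 and 0.0803 for Igfbp7. With the replicate block in limma, 0 of the 12094 tested genes passed and 981 had an unadjusted p under 0.05. In the lower direction that p was under 0.05 for 3 of 9 members, against 5.03% of all tested genes. They were Igf1, Igfbp4 and Igfbp7, with adjusted p by limma between 0.483 and 0.523. Over all genes, 17 passed with library weights, and 11 passed with the replicate block without pair 6, which was added after seeing the data. The difference of Igf1r turned to 0.038 within libraries 5 to 7. That of Igf2r turned to 0.136 there and to 0.006 without libraries 8 and 9, and that of Igfbp2 turned to -0.283 within libraries 8 to 10. The Nfic difference was -0.571 within libraries 5 to 7 and -0.472 within 8 to 10, where an exact permutation of 3 against 3 cannot go below p = 0.1, so no loss can be read from them. It missed the threshold at -0.403 without both libraries numbered 6 and at -0.564 without libraries 8 and 9, and it ran between -0.628 and -0.411 with 1 library left out. With Spearman's rho in place of r, also added after seeing the data, 13 pairs of members and 22 relations to marker lists passed, against 24 and 48. The cause was not tested.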

Other observations

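Among the tested genes, with predicted genes and clones left out, those closest to a member over the 12 libraries were named. Closeness was the Pearson r of log2(RPKM + 1), as a description. For Igf2 they were Olfml2b (r = 0.975), P4ha3 (r = 0.975) and Six2 (r = 0.974). Igfbp4 was closest to Prrx1 (r = 0.989), Nid1 (r = 0.983) and Mfap4 (r = 0.982), and Prrx1 is itself in the dental mesenchyme list. Igfbp7 was closest to Clec14a (r = 0.981), Grap (r = 0.98) and Postn (r = 0.978), and Postn is in the follicle and ligament list. Igfbp2 was closest to Rgma (r = 0.977), Ecm1 (r = 0.958) and Irx1 (r = 0.95). For Igf1 they were Adamts5 (r = 0.971), Bmp3 (r = 0.965) and Adamts1 (r = 0.963), and for Igf1r Nipbl (r = 0.98), Birc6 (r = 0.963) and Sik3 (r = 0.959).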
